A study of Nicrophorus vespilloides with 60 samples.

Results

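Lines N1 and N2 are the replicate populations of the burying beetle *Nicrophorus vespilloides* that evolved without parental care, and the 23 RNA libraries made from them were compared here, out of 46 RNA libraries and 60 libraries of all kinds in the series. The members were chosen by the line named in the labels, with 12 libraries of N1 and 11 of N2, and no measured value entered that choice. Every library held RNA from the pooled heads of 4 first-instar larvae of 1 family at generation 30, collected 80 h after the parents were paired. In the FC environment the parents stayed with the brood, and in the NC environment they had been removed at 53 h. N1 gave 6 libraries in the FC environment (N1_FC) and 6 in the NC environment (N1_NC), and N2 gave 5 (N2_FC) and 6 (N2_NC). Lines F1 and F2, which evolved with full care, served as a point of reference with 23 libraries. Each line is 1 population, and N1 was kept in block 1 with F1 while N2 was kept in block 2 with F2. A difference between N1 and N2 therefore cannot be told apart from a difference between blocks, and the p-values measure the spread between families within these lines.

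Burying beetles raise their larvae on the carcass of a small vertebrate. The parents clear and preserve the carcass, feed the begging larvae and defend the brood, and larvae of this species can often survive without them. Lines bred apart under the same regime can drift or adapt differently, and a comparison of replicate lines shows how far expression differs where the regime was shared. The question here was which genes differed between N1 and N2 in larval heads, and whether they did so with and without parents.

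The deposited values were counts per gene, whose totals ran from 102719698 to 145666277 in N1 and from 106401964 to 128901776 in N2. Of 13761 genes, 11728 reached 15 counts in 3 or more of the 23 and entered edgeR's quasi-likelihood test, with the environment as a covariate. A differentially expressed gene (DEG) had a p below 0.01 after Benjamini-Hochberg adjustment over all tested genes and an absolute log2 fold change of 1 or more. Levels are CPM, counts scaled to the TMM-normalised library size, and log2 fold changes are N2 minus N1 throughout. Product names were at hand for 82 genes only, so most genes below are given by their RefSeq symbol, without a role, and the tissue could not be checked against markers of the head. A lower level in such bulk samples can mean fewer cells of a type or less RNA per cell, and these cannot be told apart. The annotation table used here named no scaffold, so no positions are given.

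On the first principal axis of the regularised log values, which held 40.9% of the variance, the libraries lay mainly by environment. The lines overlapped on it, at 9.84 ± 26.8 in N1 (SD, n = 12) and −10.7 ± 24.7 in N2 (SD, n = 11). Replicates 27 and 29 of N1_FC, at 31.42 and 0.36, lay apart from the other 4 libraries of their group, which lay between −29.51 and −18.57. Replicate 8 of N2_NC, at −22.01, lay below the other 5 libraries of its group, which lay between −6.89 and 35.74. Replicate 21 of N2_FC, at −7.96, also lay apart from the rest of its group, which lay between −42.55 and −28.59, but was kept. By distance to the group mean, replicate 29 of N1_FC, at 39.47, was close to replicate 23, at 39.38. Counts of DEGs are also given without replicates 27 and 29 of N1_FC and replicate 8 of N2_NC. These 3 libraries are 1 choice among others. In a permutational analysis of variance on distances between libraries, line accounted for 11.2% of the variance beside the environment (p = 0.00185, permutation test within environments), and the environment for 23.3% beside line. The residual, at 66.4%, holds differences between families together with technical variation, since each family gave 1 library, and these marginal shares need not add up to the whole. Without the 3 libraries the share of line was 8.93% (permutation p = 0.0061). Leaving them out also brings the lines closer on the first axis, so that choice favours a lower share. Families lay at a mean distance of 38.01 ± 8.16 (SD, n = 12) from their group mean in N1 and 32.7 ± 9.93 (SD, n = 11) in N2, a difference of 5.29 (two-sided permutation test, p = 0.182). Leaving out N2_NC replicate 8 gave a difference of 7.91 (permutation p = 0.0103), so 1 library decided on which side of 0.05 this comparison fell.

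**Figure D1:**
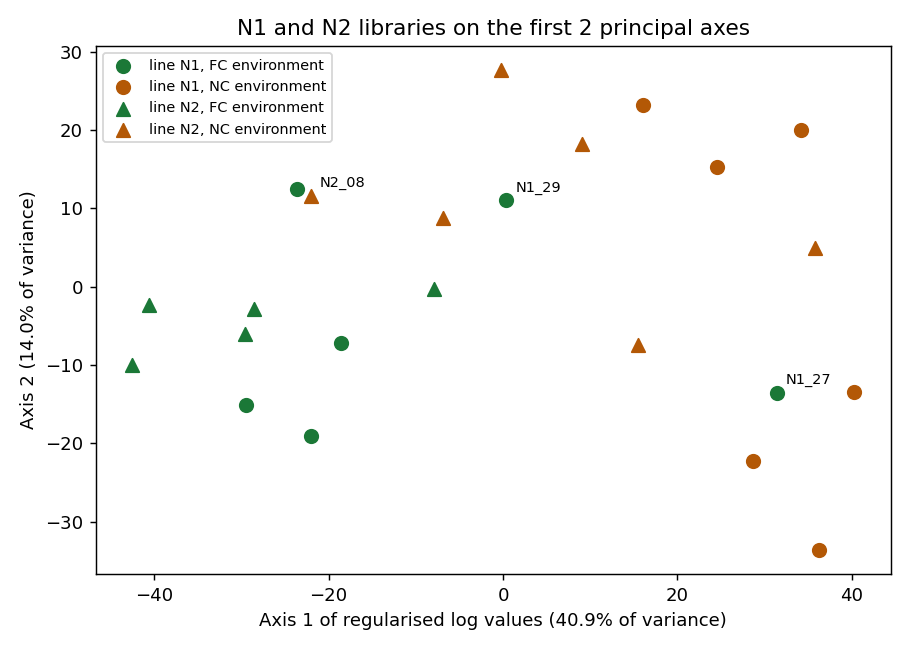
Each point is 1 library, placed on principal axes 1 and 2, with circles for N1, triangles for N2, green for the FC environment and brown for the NC environment. The environments separate along the first axis (40.9% of the variance) apart from the 3 labelled libraries, and the lines overlap on both axes.

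Between the lines, 42 of 11728 genes were DEGs (0.358%). In N2, 31 of them were lower (0.264% of the genes tested) and 11 were higher (0.0938%). Dropping the minimum fold change left 186 genes past the adjusted p (1.59%), 106 of them higher in N2 (0.904%) and 80 lower (0.682%), so most differences that passed were smaller than 2-fold. The unadjusted p was below 0.05 for 3478 genes (29.7%), where 586 would be expected if no gene differed. The median over all tested genes was −0.02, a value that TMM scaling holds near 0, so a general shift between the lines could not be seen in these values. The 42 DEGs comprised 38 protein-coding genes, 3 long non-coding RNAs (lncRNAs) and 1 pseudogene. They were expressed at a lower level than tested genes as a whole (median 1.95 CPM against 13.4 CPM), and 13 of them were under 1 CPM in both lines. Their spread between families of a group was larger too, with a median SD of 0.68 on the log2 scale against 0.34.

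The count was sensitive to which families were sequenced. Without the 3 libraries that stood apart, 13 DEGs were called, 3 higher and 10 lower, and all 13 were among the 42. The N1_FC libraries among the 3 lay above the rest of their group on the first axis, and the N2_NC library lay below its own. N1 had the higher mean on that axis, so leaving the 3 out brings the lines closer there. The lower count is therefore no independent result. Leaving out 1 library at a time gave 19 to 61 DEGs, with the lowest count without N2_NC replicate 3 and the highest without N2_NC replicate 7, and 10 of the 23 omissions moved the count by more than 1.5 times. None of the 42 changed direction in any omission, which their choice by size and adjusted p on the same libraries makes likely beforehand. DESeq2's Wald test called 230 genes, among them 41 of the 42. A set of 11 DEGs was called in each of the 23 omissions and also without the 3 libraries, and 3 of the 11 were higher in N2. These 11 genes are described first.

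**Figure D2:**
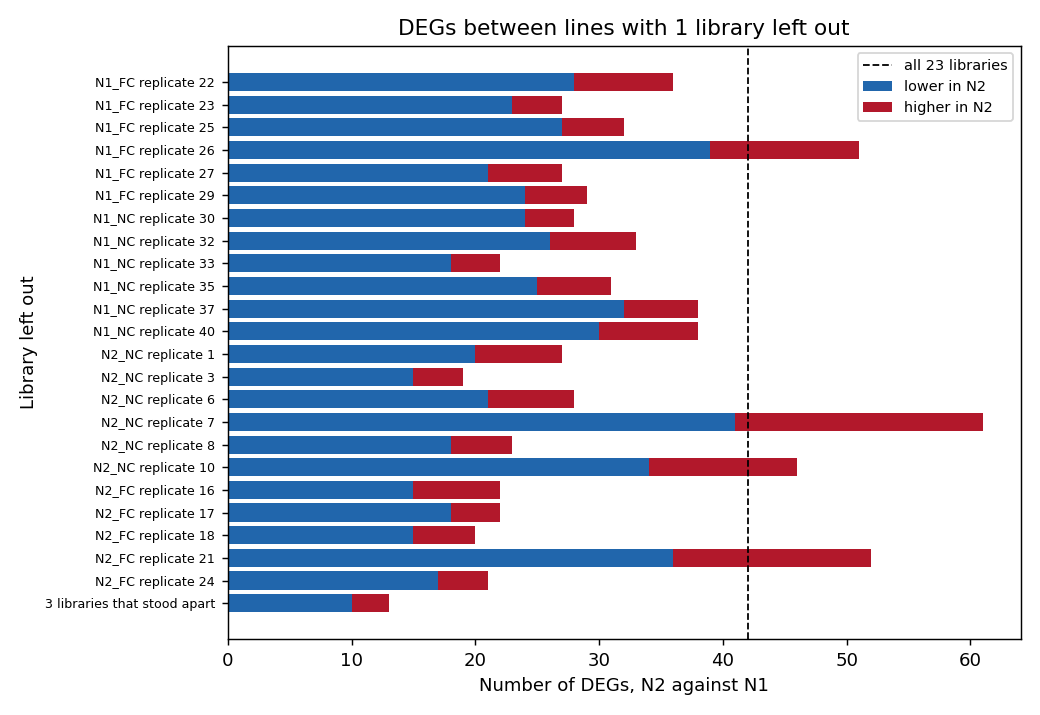
Each bar is the number of DEGs between N2 and N1 after the library named on the left was left out, in blue for genes lower in N2 and in red for genes higher in N2. The last bar leaves out the 3 libraries that stood apart, and the dashed line marks the 42 DEGs of all 23 libraries.

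The smallest adjusted p belonged to LOC108565216, which was higher in N2 in both environments. Its level ran from 0.359 to 0.965 CPM in N1 (median 0.532) and from 1.93 to 5.39 CPM in N2 (median 3.40), and the lines did not overlap. The log2 fold change was 2.60 (standard error 0.21, adjusted p = 3.42e-07 from edgeR). It was 2.63 within the FC environment and 2.57 within the NC environment, where the adjusted p was 4.28e-04 and 4.02e-04 (edgeR). The 5 N2_FC libraries stood at 1.93, 2.80, 3.59, 5.33 and 5.39 CPM. In F1 and F2 the level was 0.602 ± 0.194 (SD, n = 11) and 0.930 ± 0.525 CPM (SD, n = 12), so N1 lay near both full-care lines and N2 above them.

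LOC108567087, annotated as dual oxidase 1-like, was also higher in N2. Dual oxidases are membrane enzymes that make hydrogen peroxide, and in *Drosophila* they serve in gut immunity and in the cross-linking of cuticle. The level ran from 0.890 to 5.15 CPM in N1 (median 1.70) and from 2.93 to 16.6 CPM in N2 (median 7.44). Of the 11 N2 libraries, 8 lay above every N1 library, and 1 N1 library lay inside the N2 range. The log2 fold change was 2.01 (standard error 0.31, edgeR adjusted p = 0.00129) and of similar size with parents (2.14) and without them (1.89). F1 and F2 stood at 2.22 ± 1.34 (SD, n = 11) and 1.60 ± 0.812 CPM (SD, n = 12). The start and end listed for it overlap those of the next record in the annotation table, LOC108567086, whose log2 fold change was 0.24. If both lie on the same scaffold, which the table does not name, counting could have divided reads between them.

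LOC108563526 was the third gene of this set to be higher in N2, and it varied widely between N2 families. N1 libraries lay within 0.999 to 2.92 CPM (median 1.66), and N2 libraries ran from 1.26 to 38.6 CPM (median 11.97). Of 11 N2 libraries, 10 lay above every N1 library, and the lowest N2 library came from the NC environment. The log2 fold change was 2.99 (standard error 0.39, edgeR adjusted p = 2.99e-04). The highest value, N2_NC replicate 10, did not decide it, since the log2 fold change was 2.66 without that library.

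LOC108560338 had 0 counts in all 11 N2 libraries. It held 20 to 109 counts in the 12 N1 libraries, or 0.165 to 1.05 CPM (median 0.385), and it was also detected in F1, where 4 of 11 libraries were at 0, and in every F2 library. A floor of 3 counts per library would put the mean level 15.5-fold lower in N2 than in N1, if each count were a read. The deposited values are not numbers of reads, as described below, so this fold is no firm lower bound. The edgeR test gave an adjusted p of 7.71e-06, and counts of this size say that the transcript was not detected in N2 at this depth, not that it was absent. At best, floors and intervals of this kind cover counting error only.

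LOC108563868 had the lowest log2 fold change of these 11 genes apart from LOC108560338. Its level ran from 0.606 to 21.7 CPM in N1 (median 6.38) and from 0.370 to 2.06 CPM in N2 (median 0.564). Of 12 N1 libraries, 10 lay above every N2 library. The log2 fold change was −3.45 (standard error 0.47, edgeR adjusted p = 3.22e-04), −3.57 with parents and −3.35 without. The full-care lines had lower means than N1 as well, with 0.301 ± 0.266 CPM in F1 (SD, n = 11) and 1.87 ± 1.68 CPM in F2 (SD, n = 12). F2 libraries reached 5.67 CPM, inside the N1 range. F1 and F2 also differed, by 2.63 on the log2 scale (F2 minus F1, standard error 0.645, edgeR adjusted p = 0.0258). N1 was not tested against the full-care lines.

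LOC108563945 and LOC108569016 were above 10 CPM in each of the 23 N1 and N2 libraries, and both were lower in N2. LOC108563945 ran from 39.0 to 211 CPM in N1 (median 85.1) and from 15.2 to 63.0 CPM in N2 (median 33.1), with a log2 fold change of −1.64 (standard error 0.25, edgeR adjusted p = 0.00124). LOC108569016 ran from 32.5 to 160 CPM in N1 (median 55.5) and from 13.9 to 39.7 CPM in N2 (median 21.1), with a log2 fold change of −1.55 (standard error 0.24). In each of the 2 genes 9 of 12 N1 libraries lay above every N2 library. The 5 N2_FC libraries of LOC108563945 stood at 15.2, 16.1, 25.2, 28.1 and 29.95 CPM, and those of LOC108569016 at 13.9, 15.1, 16.9, 18.6 and 20.7 CPM. In both genes these 5 values lay below all 6 N1_FC values, whose lowest were 39.0 and 32.5 CPM.

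LOC108559491 combined a difference between lines with a difference between environments. It ran from 5.51 to 9.34 CPM in N1_FC, from 12.3 to 22.9 CPM in N1_NC, from 1.24 to 4.41 CPM in N2_FC and from 3.40 to 8.37 CPM in N2_NC. The 2 lines did not overlap within either environment. The log2 fold change between lines was −1.61 (standard error 0.20, edgeR adjusted p = 1.16e-04), and that between environments, NC minus FC, was 1.15 (standard error 0.19, edgeR adjusted p = 1.40e-04). LOC108559921 moved likewise, from a mean of 2.02 CPM in N1_FC and 3.40 CPM in N1_NC to 0.521 CPM in N2_FC and 1.61 CPM in N2_NC. Its log2 fold change between lines was −1.48 (standard error 0.27), and the lines overlapped in the NC environment.

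The remaining 2 genes of the set were LOC108557242 and the lncRNA LOC108559253. LOC108557242 had a median of 1.58 CPM in N1 (0.686 to 2.99) and 0.586 CPM in N2 (0.215 to 0.954), and 11 of 12 N1 libraries lay above every N2 library. LOC108559253 had a median of 18.3 CPM in N1 (6.33 to 30.3) and 7.39 CPM in N2 (4.44 to 14.5). For LOC108559253 the N1_NC libraries, at 17.7 to 30.3 CPM, lay above all N2_NC libraries, while the N1_FC libraries, at 6.33 to 29.1 CPM, overlapped those of N2_FC. Their log2 fold changes between lines were −1.47 and −1.24, with edgeR adjusted p of 0.00129 and 0.00443.

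**Figure D3:**
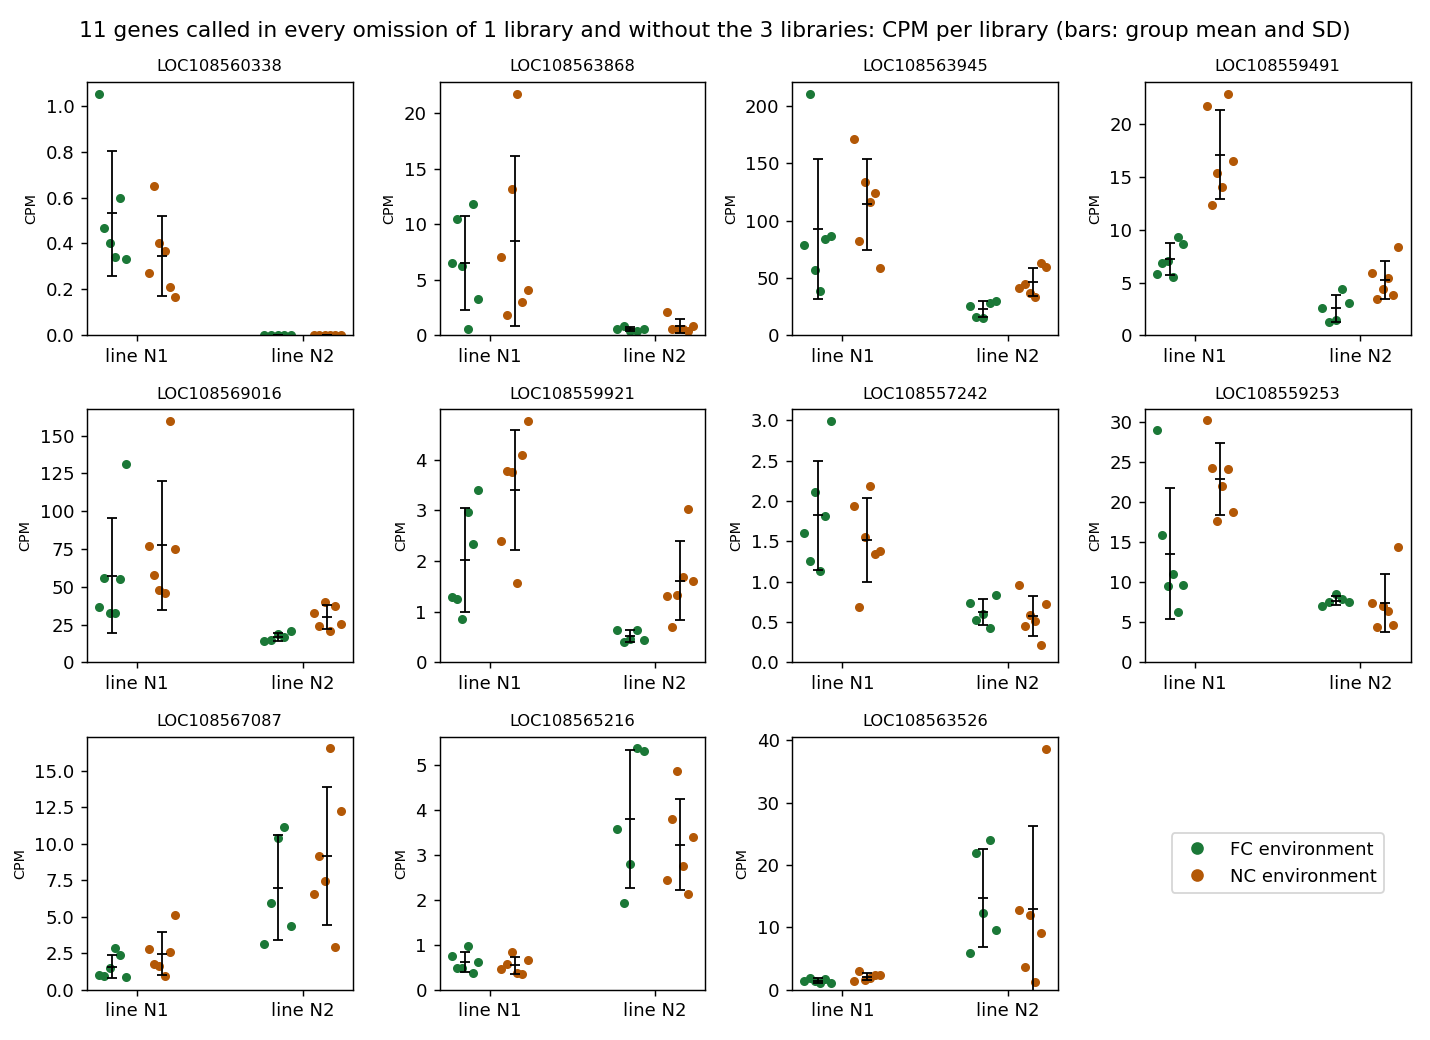
CPM of the 11 genes in each library, with line on the horizontal axis, green for the FC environment and brown for the NC environment, and bars for the mean and SD of each line and environment (n = 5 in N2_FC and 6 in the other groups). The first 8 panels show genes lower in N2, of which LOC108560338 is at 0 in all 11 N2 libraries, and the last 3 show genes higher in N2.

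The other named DEGs higher in N2 were less secure. Of the named genes, LOC108566011 had the largest fitted increase, 4.37 on the log2 scale (standard error 0.96, edgeR adjusted p = 0.00974), but it ran from 0.0763 to 11.2 CPM in N1 and from 0.613 to 118 CPM in N2. N2_NC replicate 8 alone held 31.2% of the sum over the 23 libraries, and without that library the log2 fold change was 2.96 (edgeR adjusted p = 0.0156), which did not pass. The 5 N2_FC libraries, at 4.15, 23.4, 28.1, 79.0 and 80.9 CPM, overlapped the 6 N1_FC libraries, which reached 11.2 CPM, in the lowest one only. LOC108568241, an lncRNA, lay at 0 to 0.502 CPM in N1, with 4 of 12 libraries at 0, and at 0.606 to 2.55 CPM in N2, without overlap. LOC108569205 also did not overlap, at 14.8 to 26.9 CPM in N1 and 31.5 to 63.0 CPM in N2, for a log2 fold change of 1.004 (standard error 0.13, edgeR adjusted p = 3.22e-04). The start and end listed for LOC108569205 overlap those of the adjacent record LOC108569199, whose log2 fold change was −0.32, with the same limit as for the dual oxidase. The difference of 1.004 sits at the minimum fold change, and without the 3 libraries it was 0.918 at an adjusted p of 0.00226 (edgeR). LOC108560295, LOC108564334, LOC108556992 and LOC108557108 had log2 fold changes of 2.41, 1.72, 1.12 and 1.04, and their adjusted p rose to 0.0456, 0.044, 0.0547 and 0.0172 without the 3 libraries (edgeR). For LOC108556992 the log2 fold change was 1.76 with parents and 0.52 without, and its listed start and end overlap those of the adjacent record LOC108556991. Of the 23 omissions of 1 library, the call was lost in 19 for LOC108566011, in 18 for LOC108568241 and LOC108564334, in 20 for LOC108560295 and LOC108556992, in 8 for LOC108569205 and in 6 for LOC108557108.

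Among the other named DEGs lower in N2, LOC108564176 came nearest to a separation of the lines. It ran from 1.09 to 3.60 CPM in N1 and from 0 to 1.18 CPM in N2, with 11 of 12 N1 libraries above every N2 library and a log2 fold change of −1.88 (standard error 0.39). LOC108567814 had a log2 fold change of −3.26 (standard error 0.66) and differed between environments as well, by 2.59 on the log2 scale (NC minus FC, edgeR adjusted p = 0.0043). All 6 N1_NC libraries of LOC108567814, at 6.88 to 16.8 CPM, lay above all 6 N2_NC libraries, at 0.293 to 3.40 CPM, and 2 of the 5 N2_FC libraries were at 0. LOC108560062, LOC108564864 and LOC108558602 had log2 fold changes of −2.76, −1.87 and −1.79, and LOC108560960 one of −1.16. For LOC108560062, 5 of 12 N1 libraries lay above every N2 library, and the highest N1_FC library stood at 5.45 CPM where the next was at 0.564 CPM. The call was lost in 3 of the 23 omissions for LOC108560960, in 6 for LOC108564864, in 8 for LOC108567814, in 16 for LOC108564176, in 17 for LOC108560062 and in 18 for LOC108558602, and of these 6 genes LOC108564176 alone was a DEG without the 3 libraries. The 18 DEGs that are not named here comprised 17 that were lower in N2, with log2 fold changes from −4.75 to −1.02, and 1 that was higher, and 11 of the 18 were under 1 CPM in both lines.

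The ranges of the 12 N1 and 11 N2 libraries were separate in 6 of 11728 genes (0.0512%), with N2 above in 4 (0.0341%) and N1 above in 2 (0.0171%). The count was 9 without the 3 libraries that stood apart, and it moved to 10 without N2_NC replicate 1 and to 15 without N2_NC replicate 7. Of these, LOC108565216, LOC108568241, LOC108569205 and LOC108560338 are described above. The other 2 differed by less than the minimum fold change. LOC108561875 ran from 10.1 to 16.3 CPM in N1 and from 6.97 to 9.85 CPM in N2, with a log2 fold change of −0.55 (standard error 0.08, edgeR adjusted p = 5.15e-04). LOC108557278 ran from 27.1 to 41.1 CPM in N1 and from 41.7 to 47.8 CPM in N2, with a log2 fold change of 0.37 (standard error 0.06, edgeR adjusted p = 0.00216). Small but even differences of this kind lie outside the DEG count.

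The line difference was next taken within each environment, in 1 fit of the 4 groups. With parents, 7 genes were DEGs (0.0597%), 3 higher (0.0256%) and 4 lower (0.0341%) in N2. Without parents 4 genes were DEGs (0.0341%), 1 higher (0.00853%) and 3 lower (0.0256%). Leaving out 1 library moved these counts to between 2 and 15 and to between 2 and 7, so neither is stable at 5 or 6 families a group. All 42 DEGs had line means that differed in the same direction in both environments, against 7967 of all 11728 tested genes, and the averaging in the call favours such genes. The difference between the 2 environments, tested as an interaction, passed for 0 genes in edgeR (0%), where the lowest adjusted p was 0.415 and 1016 genes had an unadjusted p under 0.05 (8.66%). DESeq2 called 6 genes for the interaction.

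The response to the loss of care in each line was read from the same fit. In N1, 140 genes were DEGs between environments (1.19%), 53 higher (0.452%) and 87 lower (0.742%) in the NC environment. In N2 there were 148 (1.26%), 128 higher (1.09%) and 20 lower (0.171%). Without the 3 libraries the counts were 467 in N1, 189 higher and 278 lower, and 347 in N2, 169 higher and 178 lower, so both the counts and the split by direction moved. The 3 libraries were set apart for lying toward the other environment on the first axis. Leaving them out therefore favours larger counts between environments, and the rise is no independent result. Single libraries moved the counts strongly too, to 314 in N1 without N1_FC replicate 27, and in N2 to 261 without N2_NC replicate 8 and to 311 without N2_FC replicate 21. The interaction above is the test of a difference between the 2 responses.

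Products were known for the 82 genes that the study listed as differentially expressed only in the no-care populations. The paper counted its DEGs against larvae of the full-care populations raised with parents. The list can therefore hold differences between populations as well as responses to care. That list was chosen on libraries that include those compared here, so it is no independent evidence of a direction or a size. A gene far from the full-care lines in only 1 of the N lines could enter it. The choice thus favoured larger differences between N1 and N2 than over all genes. Of the list's 82 genes 75 were tested, and 1 of them, the dual oxidase described above, was a DEG between N1 and N2. The other 7 fell below the filter on low counts, among them orexin receptor type 2-like (LOC108567943), a neuropeptide receptor gene, which reached 22 counts at most, and juvenile hormone acid O-methyltransferase-like (LOC108565348), which reached 9. The list's median log2 fold change was −0.02, the same as over all genes tested, and its median absolute log2 fold change was 0.93 against 0.21 over all genes tested. Of the 75, 18 were higher and 14 lower in N2 at an unadjusted p under 0.05, where the shares over all tested genes were 13.9% and 15.8%.

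The largest family on the list was that of cuticle proteins, which bind chitin and form the larval and pupal exoskeleton. None of the 10 was a DEG (edgeR), 4 had an unadjusted p under 0.05, and 8 had a positive log2 fold change, with a median of 1.09. Over all tested genes 29.7% had such a p, 46.8% had a positive log2 fold change, and the median was −0.02. The highest value was 2.41 (standard error 0.68, edgeR adjusted p = 0.0313) for pupal cuticle protein C1B-like (LOC108561102), whose median level was 6.78 CPM in N1 and 37.4 CPM in N2. The lowest was −0.68 for another gene of the same annotated name (LOC108559211). Within the FC environment the median over the 10 genes was 0.12, with values from −0.75 to 1.80, and within the NC environment it was 2.08, with values from −0.74 to 2.96. In 9 of the 10 genes the value was more positive without parents, and none of these interactions passed (lowest edgeR adjusted p = 0.613). The median interaction was 1.82, against 0.112 over all tested genes. The contrast the paper describes for the list held the NC libraries of N1 and N2, not their FC libraries. A larger line difference without parents is therefore favoured by the choice of genes. Without the 3 libraries the medians of the line difference were −0.21 with parents and 1.58 without them. The genes are expressed in the same tissue and share the libraries, so their number does not add replicates.

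**Figure D4:**
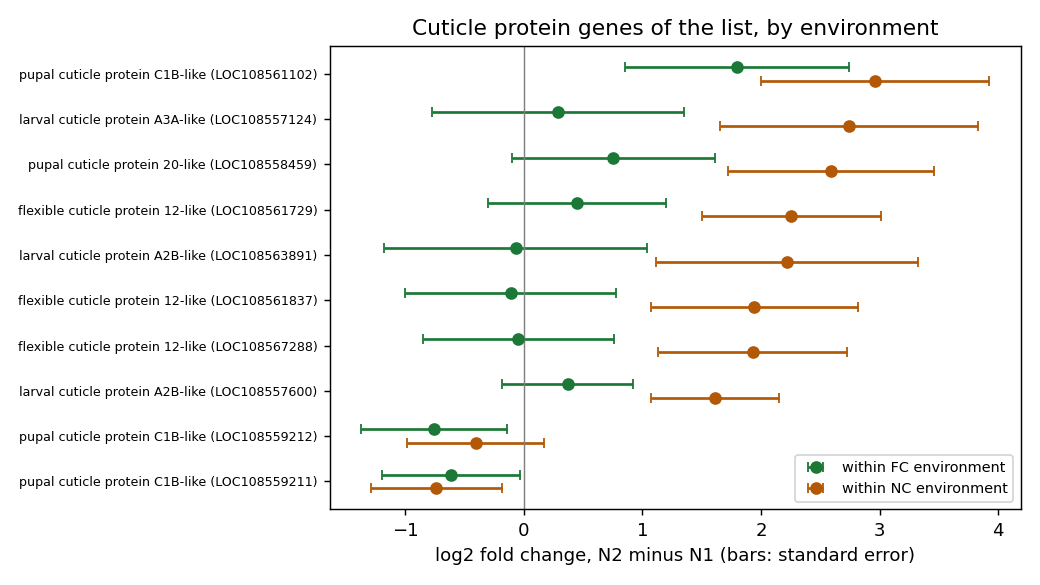
Log2 fold change between N2 and N1 for the 10 cuticle protein genes of the list, with bars for the standard error, in green within the FC environment (11 libraries) and in brown within the NC environment (12 libraries). The brown points of 8 genes lie above 0, up to 2.96, while the green points run from −0.75 to 1.80. The NC libraries of N1 and N2 entered the choice of the list, which favours larger values there.

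The other families showed no DEG apart from the dual oxidase. Of 4 cytochrome P450 genes, which code for enzymes that oxidise hormones and toxins, 3 were negative, and the lowest was cytochrome P450 9e2-like (LOC108557937) at −1.10 (standard error 0.29, edgeR adjusted p = 0.0231). NADPH oxidase 5 (LOC108564697), an enzyme that makes reactive oxygen species like the dual oxidases, stood at 1.04 (standard error 0.46, edgeR adjusted p = 0.134). The 2 odorant-binding proteins, which carry odour molecules to receptors of the antenna, had values of opposite sign, 1.59 for 19d-like (LOC108562103) and −1.54 for 69a-like (LOC108567230), with adjusted p of 0.0967 and 0.255 (edgeR). The antimicrobial genes were defensin (LOC108558285), a small peptide that attacks bacteria, at −3.62 (standard error 1.19, edgeR adjusted p = 0.0549), and lysozyme C-like (LOC108566479), an enzyme that cuts bacterial cell walls, at −0.24 (standard error 0.37). Glutamate receptor ionotropic kainate 2-like (LOC108561581) stood at 0.47 (standard error 0.36). Of the whole list, 1 of 75 tested genes passed the edgeR adjusted p of 0.01 with no minimum fold change, against 1.59% of all tested genes. Genes of the list with an edgeR adjusted p under 0.05 are given for their values only. Their share over all tested genes was not taken at that threshold. Besides the genes given above, those higher in N2 were inducible metalloproteinase inhibitor protein-like (LOC108560730) at 3.31, the uncharacterized LOC108557038 at 3.94 and C-type lectin 37Db-like (LOC108560296), a sugar-binding protein, at 0.93. Those lower in N2 were the uncharacterized LOC108567299 at −5.04, LOC108567300 at −3.12 and LOC108562163 at −1.005, and LOC108569073, annotated as vicilin-like, at −1.78. LOC108560730 and LOC108557038 lay near the floor in N1, at means of 0.019 and 0.039 CPM, with 7 and 8 N1 libraries at 0. In N2 their means were 0.205 and 0.711 CPM.

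The same contrast between blocks was available in the full-care lines. F2 against F1 gave 26 DEGs among 11730 genes tested (0.222%), 14 higher (0.119%) and 12 lower (0.102%) in F2, and leaving out 1 library gave 9 to 27. Of the 42 DEGs between N1 and N2, 41 were tested there, 15 had the same sign in both contrasts and 26 the opposite sign, where 54.7% of all genes tested in both had the same sign. Of the 41, 1 gene, LOC108560960, was a DEG in both contrasts and in opposite directions. It was lower in N2 than in N1 (0.397 ± 0.146 CPM, n = 11, against 0.896 ± 0.273 CPM, n = 12) and higher in F2 than in F1 (0.940 ± 0.662 CPM, n = 12, against 0.337 ± 0.154 CPM, n = 11, all SD). The log2 fold changes were −1.16 (standard error 0.23, edgeR adjusted p = 0.00526) and 1.31 (standard error 0.26, edgeR adjusted p = 0.00837).

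A test of the difference between the 2 contrasts, (N2 minus N1) minus (F2 minus F1), is one that a block effect shared by both populations does not enter. In 1 fit of all 46 libraries it was called for 58 of 11777 genes (0.492%), 22 positive (0.187%) and 36 negative (0.306%), and for 49 to 67 genes when 1 of the N1 or N2 libraries was left out. The count was 38 without the 3 libraries that stood apart and 148 in DESeq2. Among the named genes the smallest adjusted p came from one whose difference between N1 and N2 was within its error. LOC108564555, annotated as heat shock 70 kDa protein 1A-like, a chaperone that refolds proteins under stress, had 3.51 ± 1.75 CPM in N1 (SD, n = 12), 3.37 ± 2.12 CPM in N2 (SD, n = 11), 40.2 ± 15.7 CPM in F1 (SD, n = 11) and 4.89 ± 1.96 CPM in F2 (SD, n = 12). The lowest F1 library, at 15.5 CPM, lay above every library of the other 3 lines, of which the highest was at 8.60 CPM. The interaction was 2.88 on the log2 scale (standard error 0.33, edgeR adjusted p = 7.54e-07), with −0.20 between the N lines and −3.11 between the F lines.

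In the other leading genes of that test the N lines themselves differed. For LOC108563526 the difference was 2.99 between the N lines and −1.68 between the F lines, and the interaction was 4.67 (standard error 0.59, edgeR adjusted p = 6.68e-06). For LOC108563868 the 2 differences were −3.45 and 2.63, and the interaction was −6.07 (standard error 0.83, edgeR adjusted p = 2.50e-05). LOC108560338, at 0 in N2, had a difference of 0.48 between the F lines (standard error 0.71), and its interaction had an adjusted p of 6.89e-05 (edgeR). For LOC108565216 the interaction was 1.94 (standard error 0.33) and for the dual oxidase LOC108567087 it was 2.46 (standard error 0.48), so in both genes the higher level of N2 was not matched by F2. For LOC108563945, by contrast, both contrasts were negative, −1.64 and −1.02, and the interaction, at −0.63 (standard error 0.49, edgeR adjusted p = 0.478), did not pass.

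**Figure D5:**
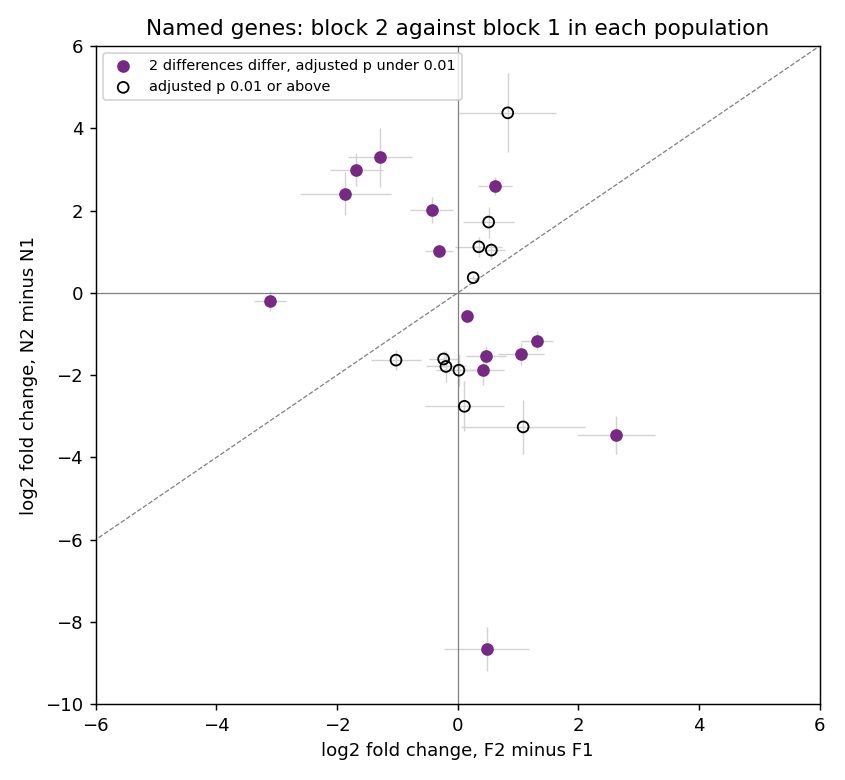
Log2 fold change of N2 against N1 (vertical) and of F2 against F1 (horizontal) for the 25 named genes, with grey bars for the standard errors and a dashed line where the 2 are equal. Filled points passed the test of the difference between the 2 contrasts, among them the heat shock gene at −0.20 and −3.11 and LOC108563868 at −3.45 and 2.63.

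Distances from the mean of the 2 full-care lines were taken as a description, as the absolute difference of means of log2(CPM + 0.1). Of the 31 DEGs lower in N2, N1 lay farther from the full-care mean in 20 and N2 in 11. Of the 11 DEGs higher in N2, N2 lay farther in 8. Over all tested genes N1 lay farther in 53.3%, a share not split by direction or level. The added 0.1 limits how far below the full-care mean a line near 0 can lie, which favours the higher line. Of the DEGs, 13 were under 1 CPM in both lines. Of the 42 DEGs, 6 also passed the adjusted p for the environment in the N lines (14.3%), against 19.1% of all genes tested.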

How the data were processed

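The authors trimmed the reads with TrimGalore, aligned them with HISAT2 against the species' RefSeq reference and used StringTie for quantification, and the deposited counts are whole numbers per gene and library without normalization. Of the values from 1 to 100 in the 23 libraries, 40.0% could be divided by 4 without remainder, against 25% among whole numbers in general, so totals are sums of deposited values and not numbers of reads. Totals say little of the precision of a gene near 0 counts. No column belonged to another sample (0 left aside). No library repeated another of its group (55 pairs), and the squared differences exceeded counting noise at least 211.7 times on average.

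Identifiers were paired with RefSeq symbols by record order in the RefSeq gene list of that assembly. The pairing was checked on 82 genes of the study's list (82 matched) and on mean levels of 1999 genes (1999 within 1% plus 0.05). Sequences were not used here.

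Fits used R 4.3.3 and edgeR 4.0.16, with the additive model of environment and line in 23 libraries, 4 groups in 1 fit for the contrasts within environments, and 8 groups in 46 libraries for the comparison with F1 and F2. Variance shares came from vegan 2.7.1, and DESeq2 1.42.0 and ashr 2.2.63 served as alternatives. A standard error is the absolute log2 fold change divided by the square root of the F statistic. Named genes were the 10 largest increases and decreases among DEGs with at least 1 CPM in the higher line and the same direction in both environments, DEGs of the study's list, the 5 leading genes of the comparison with the F lines and the genes with separate ranges. The line by environment interaction gave no gene to name. The set of 11 genes was taken after the values were seen. The lines, lists, tests and the 3 libraries were chosen with earlier results of these data known. The steps were tested on simulated data. Alternatives covered DESeq2, its size factors, filters, thresholds, the samples in the fit, counts divided by 4, and the omission of each library. Bisulfite libraries were not analysed here.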

Additional observations from a re-analysis of the deposited data

Results flagged for a closer look

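Of 104 groups of 5 or 6 values examined for a value far from the rest (25 genes and the distance to the group mean, in 4 groups each), 14 held one, where chance alone flags about 1 in 20. N2_NC replicate 8 was such a value for LOC108566011 (118 CPM, next 9.61) and LOC108560295 (9.66 CPM, next 2.57). N1_FC replicate 29 was one for LOC108556992 (4.06 CPM), LOC108560062 (5.45 CPM) and LOC108569016 (132 CPM). The distance of N1_FC replicate 27 from its group mean was 60.8, where the next was 39.5. In N2_NC the others were LOC108563526 in replicate 10 (38.6 CPM), LOC108564334 in replicate 6 (2.86 CPM) and LOC108563868 in replicate 1 (2.06 CPM). In N1_NC they were LOC108568241 in replicate 32 (0.502 CPM) and LOC108569016 in replicate 37 (160 CPM). In N1_FC they were LOC108563945 in replicate 23 (211 CPM) and LOC108560338 in replicate 22 (1.05 CPM), and in N2_FC LOC108556992 in replicate 16 (22.4 CPM).

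For 14 of the 25 named genes the difference between N2 and N1 was unlike that between F2 and F1 at an adjusted p under 0.01 (edgeR interaction). The size of the interaction was positive on the log2 scale for LOC108568241 (4.62), LOC108563526 (4.67), LOC108565216 (1.94), LOC108560295 (4.45), LOC108567087 (2.46), LOC108569205 (1.32) and LOC108564555 (2.88). It was negative for LOC108563868 (−6.07), LOC108564864 (−2.30), LOC108569016 (−2.05), LOC108559921 (−2.54), LOC108560960 (−2.47), LOC108560338 (−9.13, a fitted value against 0 counts in N2) and LOC108561875 (−0.71). Most of these genes were named for their difference between the N lines, which enters the same interaction.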

How the results depend on the processing

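No paired analysis was possible because N1 and N2 are separate populations and each family gave 1 library. Additional fits for the response within each line were chosen after seeing the data. Line DEGs numbered 42 with all libraries and 13 without the 3 libraries, 18 with no environment covariate, 66 in 1 fit of all 46 libraries, 230 in DESeq2 and 158 with ashr shrinkage, 208 at an adjusted p under 0.05 and 186 with no minimum fold change. The split went from 11 higher and 31 lower to 106 higher and 80 lower with no minimum. Within the FC environment the 7 DEGs became 4 with no filter, 4 without the 3 libraries, 160 in DESeq2, 91 at 0.05 and 11 with no minimum. Within the NC environment the 4 became 60 in DESeq2, 28 at 0.05 and 9 with no minimum. The line by environment interaction went from 0 to 6 in DESeq2 and was 0 under the other settings. The comparison with the F lines went from 58 to 38 without the 3 libraries, 148 in DESeq2, 180 at 0.05 and 121 with no minimum. DESeq2 called 74 genes for F2 against F1 in place of 26. The response in N1 went from 140 to 327 in DESeq2 and 467 without the 3 libraries, and that in N2 from 148 to 353 and 347.

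Leaving out 1 library gave 19 to 61 line DEGs, 2 to 15 with parents, 2 to 7 without, 63 to 314 for the response in N1, 71 to 311 for that in N2, 9 to 27 for F2 against F1, 49 to 67 for the comparison with the F lines, 6 to 15 genes with separate ranges, 10.1% to 13.3% for the share of line and 2.58 to 7.91 for the difference in spread. The line DEGs fell past 1.5 times without N1_FC replicates 23 (27) and 27 (27), N1_NC replicate 33 (22), N2_NC replicates 1 (27), 3 (19) and 8 (23), and N2_FC replicates 16 (22), 17 (22), 18 (20) and 24 (21). Of 825 values for the 25 named genes, 611 kept their side of the threshold, 213 lost the call and 1 reversed, LOC108564555 at 0.00522 without the 3 libraries. The cause of these changes was not tested.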
